A study of Rattus norvegicus with 20 samples.

Results

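The T cell receptor complex and its co-receptors were represented by 10 genes: Cd3d, Cd3e, Cd3g, Cd247, Cd4, Cd8a, Cd8b, Lck, Zap70 and Cd5. Every probe set whose platform annotation gave exactly 1 gene symbol, equal to one of these, was taken. A probe set is a group of short oligonucleotides on the Affymetrix rat array that together give 1 signal for a transcript. All 10 genes were on the array, among 14217 genes that were the 1 symbol of a probe set. They had 15 probe sets of 31042 that were no controls, and all 15 passed the filter on low signals. No probe set carried one of 16 symbols searched for the alpha, beta, gamma and delta chains of the receptor, so that those chains were not measured here under their own names.

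The blood came from male Wistar rats, an outbred strain, whose age is not given in the sources used here. In the first set, 35 rats received 1 oral dose of acetaminophen (APAP) at 1200 mg/kg after a fast of 12 h, and the 5 rats with the lowest and the 5 with the highest serum alanine transaminase after 24 h formed the resistant and the susceptible sub-group. Arrays were made from blood of the resistant sub-group before (R) and after APAP (RA) and of the susceptible sub-group likewise (S and SA), with 5 arrays per group and 20 in all. Predose blood was taken 1 week before dosing and postdose blood 24 h after it. Per the methods, predose blood came from the retro-orbital plexus and postdose blood from the inferior vena cava, whereas the labels give the plexus for both. No array held blood of vehicle-treated rats, so that APAP, fasting, the day and any difference in the site of bleeding cannot be told apart in a change from predose to postdose. Red cells were lysed before extraction. Each of the 10 rats gave a predose and a postdose array, but the labels do not tie equal replicate numbers to 1 rat, and all arrays were taken as separate samples, so that p-values measure the spread between arrays. In blood as a mixture, fewer T cells and less of a transcript per T cell cannot be told apart.

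The T cell receptor recognizes peptides held by MHC molecules, but its antigen-binding chains cannot signal by themselves. The signal passes through the CD3 chains and the zeta chain, whose tyrosines are phosphorylated by the kinase LCK and then bind the kinase ZAP-70. The co-receptors CD4 and CD8 bind MHC class II and class I and bring LCK to the receptor, and CD5 dampens the signal. These proteins are not all restricted to T cells: rat monocytes also carry CD4, natural killer (NK) cells also use Cd247, Lck and Zap70 and can carry CD8 alpha, and some B cells carry CD5.

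Upstream sequence was examined because several of these genes varied together from array to array, as described below for the CD3 chains. The RefSeq table of the assembly GRCr8 held 9 windows of 250 bases before a transcription start for 8 of the genes, with both starts of Lck among them, and Cd4 and Cd8b had no entry. In this assembly Cd3g, Cd3d and Cd3e are neighbours on chromosome 8. The windows of Cd3e, of Cd247 and of the outermost start of Lck are shown since these genes covaried. That of Cd8a, which covaried with the CD3 chains too, is shown as the window without the commonest motif. Sequences run 5′ to 3′ on the strand of the gene. Capitals mark the letters GGAAG, a longer form of the core GGAA bound by ETS factors, and TGTGGT, bound by RUNX factors, on either strand. GGAA alone was not marked, and the window of Cd8a holds it.
Cd3e, chr8:54211771-54212020, minus strand: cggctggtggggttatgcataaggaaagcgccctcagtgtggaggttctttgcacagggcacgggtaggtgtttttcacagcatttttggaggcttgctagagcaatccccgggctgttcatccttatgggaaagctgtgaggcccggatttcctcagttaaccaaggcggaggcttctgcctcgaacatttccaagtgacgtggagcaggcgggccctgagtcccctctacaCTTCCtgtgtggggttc
Cd247, chr13:80576019-80576268, plus strand: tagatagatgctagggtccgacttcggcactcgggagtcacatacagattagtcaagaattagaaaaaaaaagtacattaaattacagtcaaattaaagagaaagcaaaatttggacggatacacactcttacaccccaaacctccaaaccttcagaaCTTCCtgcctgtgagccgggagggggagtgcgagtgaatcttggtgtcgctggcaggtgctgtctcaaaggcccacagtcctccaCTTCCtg
Lck, chr5:147201268-147201517, minus strand: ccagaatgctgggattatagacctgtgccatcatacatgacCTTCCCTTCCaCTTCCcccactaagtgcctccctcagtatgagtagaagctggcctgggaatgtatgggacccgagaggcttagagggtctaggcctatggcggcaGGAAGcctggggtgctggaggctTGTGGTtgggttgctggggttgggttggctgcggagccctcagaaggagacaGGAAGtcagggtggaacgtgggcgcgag
Cd8a, chr4:104923866-104924115, plus strand: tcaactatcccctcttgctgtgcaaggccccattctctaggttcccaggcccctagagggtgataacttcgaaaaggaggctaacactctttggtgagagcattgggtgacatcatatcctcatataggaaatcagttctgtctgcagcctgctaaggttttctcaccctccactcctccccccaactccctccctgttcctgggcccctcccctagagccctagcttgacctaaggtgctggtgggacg
GGAAG or its reverse complement was found in 8 of the 9 windows and in 63.3% of the 33469 windows of this length in the table. TGTGGT was found in 1 of the 9, the window of Lck shown above, and in 14.5% of all windows. Other letters searched on both strands were AGATAA in 0 of the 9 and 10.3% of all windows, CTTTGA in 3 and 13.9%, and GGGCGG in 1 and 30.5%. These matches describe letters in the windows only, and no binding was measured.

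Signals were scaled so that the median of every array was 1000 without controls, and differences were tested on the log2 scale with limma over all probe sets. Of the 15 probe sets, only that of Cd4 passed a Benjamini-Hochberg adjusted p of 0.05 in any comparison, and it did so in 1 of the 5. The 5 comparisons were the change in resistant rats (RA minus R), the change in susceptible rats (SA minus S), the difference between these changes, the postdose difference (SA minus RA) and the predose difference (S minus R). In resistant rats no probe set of these genes was called, beside 2.51% of all 30747 tested that were higher and 2.6% that were lower after APAP. In susceptible rats 0 of 15 were higher and 1 was lower, beside 3.86% and 2.8% of all. No probe set of these genes was called in the difference between the changes, where limma called 0% of all, in the postdose difference, where it called 0.143%, or before dosing, where it called 0.00329% of 30416. At an unadjusted p under 0.05, 3, 3, 0, 3 and 1 of the 15 passed in these comparisons in turn, beside 17.1%, 19%, 6.9%, 9.18% and 3.74% of all probe sets. Groups that did not overlap were found for 0, 1, 0 and 0 of the 15 in RA against R, SA against S, SA against RA and S against R, beside 6.76%, 6.83%, 2.23% and 0.529% of all. The levels were above background: each of the 15 probe sets exceeded the brightest bacterial trp control on 20 of 20 arrays, by 5.44-fold or more for Cd4 and by 30.0-fold or more for the others.

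**Figure D1:**
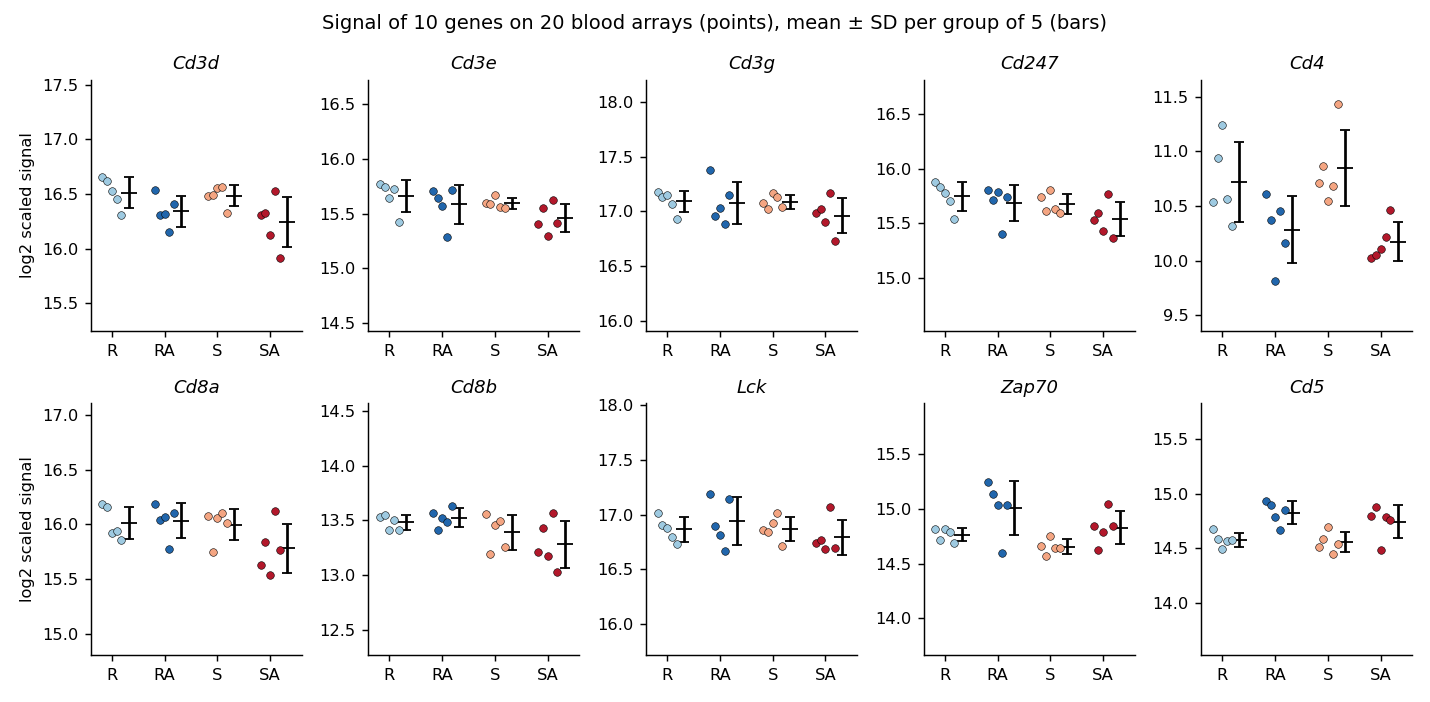
Log2 scaled signal of the probe set with the highest mean signal of each gene on 20 arrays, for the resistant sub-group before (R) and after acetaminophen (RA) and the susceptible one (S, SA); points are arrays, bars the mean ± SD of 5 arrays, and all panels span an equal range of log2 units. The 5 SA points of Cd4 lie below all 5 S points, and in the other 9 panels the groups before and after dosing overlap.

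CD4, the co-receptor of helper T cells and also a surface protein of rat monocytes, was measured by 1 probe set. Its scaled signal was 1483, 1960, 2419, 1516 and 1278 on R arrays 1 to 5 and 1562, 1323, 902, 1407 and 1146 on the RA arrays. On the S arrays it was 1675, 1864, 1498, 1640 and 2769, and on the SA arrays 1040, 1063, 1104, 1191 and 1414. All 5 SA arrays lay below the lowest S array, while the RA and R arrays overlapped, with RA array 3 the lowest of the 20. In susceptible rats Cd4 fell by 0.67 on the log2 scale, or 1.60-fold, from 10.85 ± 0.35 to 10.17 ± 0.18 (mean ± SD, n = 5 arrays; standard error 0.20, 95% interval -1.09 to -0.26, limma adjusted p = 0.0470). In resistant rats the difference was -0.44 (interval -0.85 to -0.02, adjusted p = 0.259). The changes in the sub-groups differed by -0.24 (interval -0.82 to 0.35, limma adjusted p = 0.931), so that a larger change in susceptible rats was not shown. The call in susceptible rats lay close to the threshold. Over 29 alternative settings the Cd4 value in SA minus S ranged from -0.75 to -0.53 with adjusted p from 0.0223 to 0.127, and 17 settings lost the call, among them a fit of the 10 arrays compared (limma adjusted p = 0.0836) and the fit without S array 5 (0.116).

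Some monocyte markers fell in the same comparison as Cd4 and others did not. Of 9 listed monocyte markers 8 were on the array, and none was higher and 2 were lower in susceptible rats after APAP: Csf1r, the receptor of the monocyte growth factor, by -0.89 (limma adjusted p = 0.0168) and Cx3cr1, the fractalkine receptor, by -0.78 (adjusted p = 0.0347). In resistant rats these 2 differed by -0.54 (adjusted p = 0.185) and 0.01 (adjusted p = 0.989), and none of the 8 passed. The rest of the list did not share 1 sign in susceptible rats: Cd14 and Cd68 differed by -0.55 and -0.32, and Lyz2, Clec4a, Ms4a7 and Cd163 by 0.13, 0.36, 0.86 and 1.10, none with a call. The median over the 8 was -0.09 in susceptible and -0.01 in resistant rats. The summed signal of the 8 was 359805 to 507752 in R, 345558 to 530116 in RA, 447760 to 481163 in S and 398288 to 538574 in SA, so that the groups overlapped; Lyz2, the myeloid lysozyme, was the brightest of them. None was at 0, and the lowest signal among them was 24.8. Ms4a7 and Cd163 were near background, with mean signals of 210 and 157 beside a brightest trp control of 34.9 (RA array 3) to 279 (R array 4). Their differences are therefore uncertain, with standard errors of 0.76 and 0.77. The part of monocytes in the fall of Cd4 was not tested.

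The other 9 genes, by their brightest probe sets, had no call in limma in either sub-group, and the intervals limited the size of a change. The 95% intervals reached from -0.41 to 0.48 in resistant rats, or at most 1.33-fold lower and 1.39-fold higher, and from -0.48 to 0.40 in susceptible rats, or at most 1.40-fold lower and 1.32-fold higher. Standard errors were 0.09 to 0.12. Over the 10 genes the median change was 0.01 in resistant rats, where the median of all probe sets was -0.01, and -0.13 in susceptible rats, where that of all was 0.01.

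**Figure D2:**
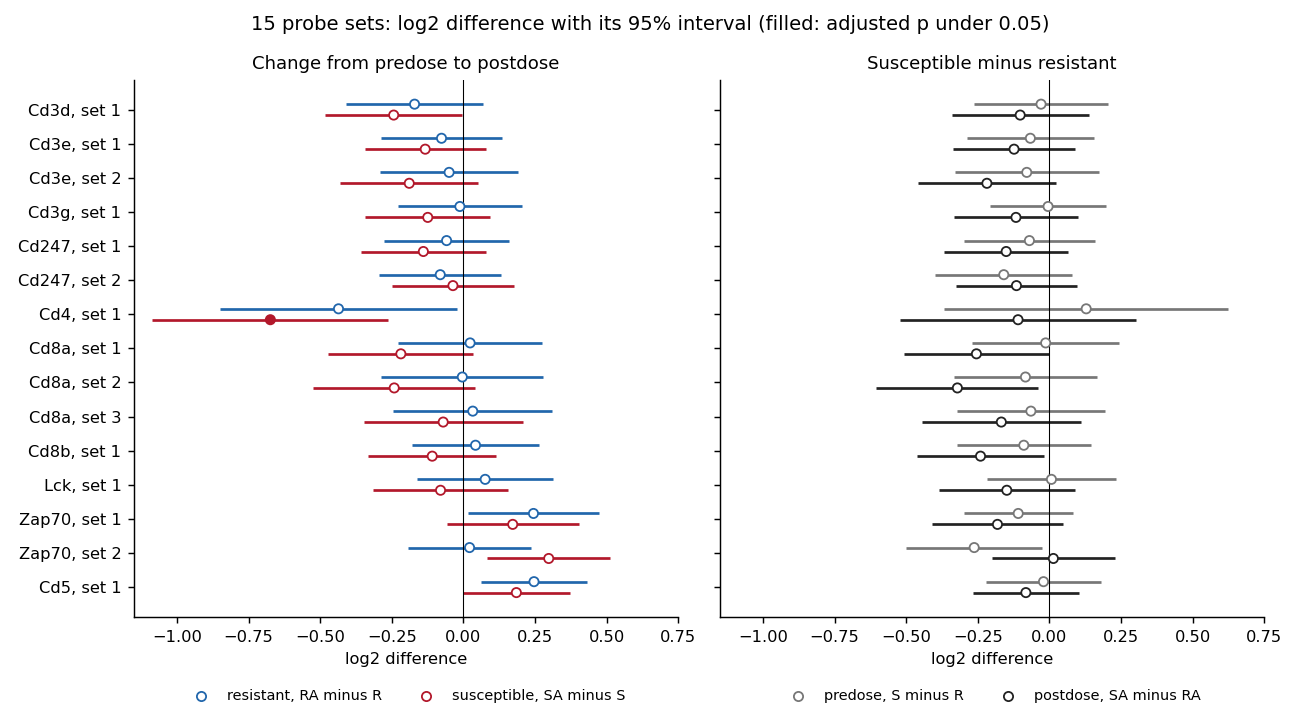
Log2 difference (x axis) with its 95% interval for each of 15 probe sets (y axis, numbered per gene by falling mean signal), for the changes from predose to postdose in resistant and susceptible rats (left) and for susceptible minus resistant rats before and after dosing (right); a filled point has a limma adjusted p under 0.05. The 1 filled point is Cd4 in susceptible rats at -0.67, and the other 14 probe sets lie between -0.24 and 0.30 in both changes.

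Among the signalling chains of the complex, Cd3d had the most negative differences in both sub-groups on the brightest probe sets. Cd3d, the CD3 delta chain, had a signal of 103450, 100834, 94758, 89551 and 81028 on the R arrays and 94812, 81276, 81687, 72645 and 86916 on the RA arrays. It was 91719, 91857, 96548, 97086 and 82004 on the S arrays and 81365, 81948, 71622, 94240 and 61943 on the SA arrays. SA array 4 lay among the predose arrays, and the other 4 SA arrays lay below every S array. The difference was -0.17 in resistant rats (limma adjusted p = 0.505) and -0.24 in susceptible rats (interval -0.48 to -0.004, adjusted p = 0.253).

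Cd3e, the CD3 epsilon chain that pairs with the delta and the gamma chain, differed by -0.08 in resistant and -0.13 in susceptible rats on its brighter probe set (limma adjusted p = 0.786 and 0.537), and by -0.05 and -0.19 on the other (adjusted p = 0.892 and 0.411). Cd3g, the CD3 gamma chain, differed by -0.01 and -0.12 (adjusted p = 0.976 and 0.582). Its signal ranged from 124606 to 148304 in R, 120805 to 170371 in RA, 132549 to 147012 in S and 108698 to 146806 in SA. RA array 1 was the highest and SA array 5 the lowest of the 20 for this gene. Cd247, the zeta chain that carries most of the signalling motifs, differed by -0.06 and -0.14 on its brighter probe set (adjusted p = 0.850 and 0.526) and by -0.08 and -0.04 on the other (adjusted p = 0.771 and 0.899).

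Calls among these genes depended on the scaling. With quantile normalization, which sets the whole distribution of signals equal on all arrays, Cd3d fell in susceptible rats by 0.40 (limma adjusted p = 0.0146), Cd3g by 0.30 (adjusted p = 0.0368) and Cd8a by 0.35 on 1 of its 3 probe sets (adjusted p = 0.0322), next to Cd4 (-0.67, adjusted p = 0.0458). These 4 of 15 probe sets stood beside 4.48% of all 30754 tested that were called lower in that setting. The median over the 10 genes was then -0.27 in susceptible and 0.02 in resistant rats, and that over all probe sets -0.02 and -0.004. Scaling to a median is the normalization of the methods, under which Cd4 alone passed.

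CD8, the co-receptor of cytotoxic T cells, is a dimer of the products of Cd8a and Cd8b, which lie near each other on chromosome 4 of GRCr8. On its brightest probe set Cd8a had 74723, 72944, 61902, 62711 and 59480 on the R arrays and 74592, 67384, 68820, 56030 and 70467 on the RA arrays. On the S arrays it had 69029, 54928, 68187, 70416 and 66003, and on the SA arrays 50764, 58606, 47552, 71358 and 55879. SA arrays 1, 3 and 5 lay below every RA array, and SA array 4 among the highest of all groups. The change was 0.02 in resistant rats (limma adjusted p = 0.956) and -0.22 in the susceptible ones (adjusted p = 0.352). The second probe set differed by -0.004 and -0.24 (adjusted p = 0.993 and 0.360) and the third by 0.03 and -0.07 (adjusted p = 0.943 and 0.838).

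Cd8b, the beta chain, differed by 0.04 in resistant and -0.11 in susceptible rats (limma adjusted p = 0.902 and 0.650). After dosing its signal was 12173, 10898, 11727, 11430 and 12721 on the RA arrays and 9454, 11044, 9234, 12166 and 8369 on the SA arrays. SA arrays 1, 3 and 5 were again below every RA array, and SA arrays 2 and 4 within their range. The postdose difference between susceptible and resistant rats was -0.24 for Cd8b (interval -0.46 to -0.02, limma adjusted p = 0.491). For Cd8a it was -0.26 (adjusted p = 0.537), -0.32 (adjusted p = 0.456) and -0.17 (adjusted p = 0.754) on the 3 probe sets, so that none passed the test.

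The kinase Lck, which starts the signal, differed by 0.08 in resistant and -0.08 in susceptible rats (limma adjusted p = 0.814 and 0.776). Its signal spanned 108429 to 132739 in R, 103841 to 149197 in RA, 107601 to 132246 in S and 105604 to 137418 in SA. The 4 ranges overlapped, and both postdose groups spread more widely than the predose groups.

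Zap70, the kinase bound by the phosphorylated zeta chain, had positive differences that did not pass the test. On the brighter probe set it had 28914, 26870, 28815, 28346 and 26492 on the R arrays and 38857, 36035, 33624, 24832 and 33604 on the RA arrays. On the S arrays it had 25987, 24274, 27705, 25660 and 25679, and on the SA arrays 29350, 25312, 28265, 33919 and 29389. RA array 4 lay below every R array and the other 4 RA arrays above every R array, while 4 of 5 SA arrays lay above every S array. The difference was 0.24 in resistant rats (interval 0.01 to 0.48, limma adjusted p = 0.255) and 0.17 in the susceptible ones (adjusted p = 0.439). Without RA array 4 Zap70 rose by 0.35 in resistant rats (limma adjusted p = 0.0370), beside 2.59% of all probe sets called higher in that fit. The other probe set of Zap70 gave another pattern, with 0.02 in resistant rats (adjusted p = 0.952) and 0.30 in susceptible rats (interval 0.08 to 0.51, adjusted p = 0.0984; without SA array 3, 0.37 and 0.0413, beside 2.51% of all called higher). Before dosing this probe set was at 13.16 ± 0.10 in R and 12.89 ± 0.15 in S (log2, mean ± SD, n = 5; difference -0.26, limma unadjusted p = 0.0338, adjusted p = 0.9998).

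Cd5, the inhibitory scavenger receptor of T cells, had 26137, 24582, 23052, 24227 and 24410 on the R arrays and 31214, 30479, 28195, 26017 and 29520 on the RA arrays. It had 23389, 24635, 26468, 22386 and 23866 on the S arrays and 28462, 30159, 22938, 28352 and 27732 on the SA arrays. In each sub-group 4 of 5 postdose arrays were above every predose array, and RA array 4 and SA array 3 were not. The difference was 0.25 in resistant rats (interval 0.06 to 0.43, limma adjusted p = 0.132) and 0.19 in susceptible rats (interval -0.001 to 0.37, adjusted p = 0.266).

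Most genes listed as NK cell markers were higher after dosing. Some of them come from cells that also use Cd247, Lck and Zap70, and not all are restricted to NK cells, as for Eomes below. Of 11 listed NK markers, 10 rose in RA and 9 in SA against the predose group, and none was called lower, with median changes of 1.14 and 0.96. Klrk1 had no call in either, with -0.16 in RA (limma adjusted p = 0.709) and 0.46 in SA (adjusted p = 0.111). Klrb1c had none in SA (0.38, adjusted p = 0.218). Eomes, a transcription factor of NK and memory T cells, rose by 1.89 (limma adjusted p = 0.000161) and 1.13 (adjusted p = 0.00629), and Ncr1, an activating NK receptor, by 1.70 (adjusted p = 0.000262) and 1.64 (adjusted p = 0.000293). The receptors Klrd1 and Klrb1a rose by 1.27 and 1.62 in RA and by 0.83 and 1.12 in SA, and the granzymes Gzma and Gzmb by 1.11 and 0.69 in RA and by 1.29 and 1.62 in SA. The brightest of the list were the perforin gene Prf1, which rose by 1.002 and 0.845, and the granule gene Nkg7, which rose by 1.14 and 0.96. The summed NK signal was 239441 to 404031 in R and 491047 to 706060 in RA, and 250028 to 328591 in S and 414240 to 666447 in SA, with no overlap in either sub-group and no marker at 0. Its part in the values of Zap70, Lck, Cd247 and Cd8a was not tested. Of 8 neutrophil markers, 3 rose in RA and 4 in SA, and none was called lower. Among those without a call, Camp differed by -0.89 in RA (limma adjusted p = 0.116) and -0.26 in SA, and Mmp8 by -0.10 and 0.47. Mmp9 (0.33 and 0.56) and the dim Cxcr1 (1.05 and 0.97, mean signal 273) were positive in RA and SA. The receptors Csf3r and Cxcr2 rose by 1.502 and 1.475 in RA and by 1.73 and 2.21 in SA, S100a8 rose by 0.73 and 0.78, and S100a9, the brightest, differed by 0.36 in RA (limma adjusted p = 0.0836) and rose by 0.55 in SA (adjusted p = 0.00612). Of 5 B cell markers 2 fell in susceptible rats, Cd22 by 0.44 (adjusted p = 0.00964) and Blnk by 0.68 (adjusted p = 0.0163), while the brightest, Ms4a1 and Cd79b, differed by -0.23 and -0.48 there and by -0.37 and -0.45 in resistant rats without a call. The summed neutrophil signal was 505605 to 712974 in R, 823058 to 1022460 in RA, 498090 to 667455 in S and 844774 to 1223810 in SA, and the summed B cell signal 105594 to 154549, 85130 to 108119, 96613 to 132217 and 79494 to 102857. All signals are relative to the rest of the blood RNA on the array, and the part of these other cells in the values of the T cell genes was not tested.

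**Figure D3:**
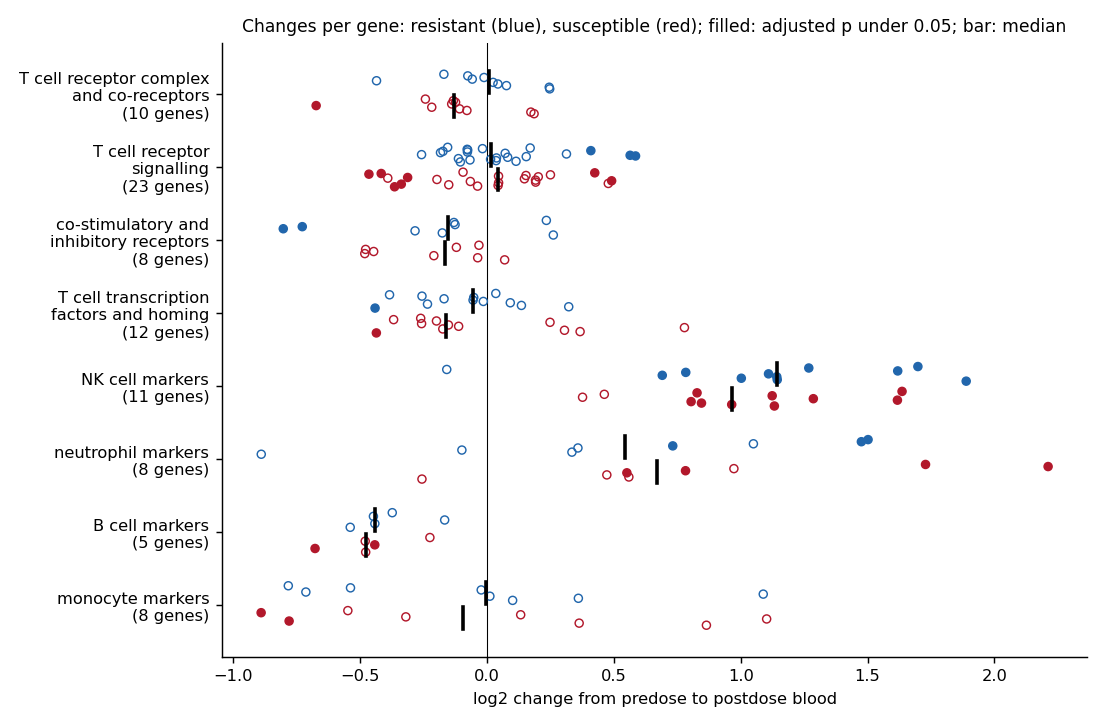
Log2 change from predose to postdose blood (x axis) of each gene by list (y axis), 1 probe set per gene, for resistant (blue) and susceptible (red) rats; filled points have a limma adjusted p under 0.05 and vertical bars are list medians. The T cell receptor genes lie around medians of 0.01 and -0.13, and the NK markers around 1.14 and 0.96.

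Other T cell genes changed in part. Of 8 T cell markers in the list, 4 of which are among the 10 genes, all were on the array with signals from 1658 upward, and 1 was lower in resistant rats: Cd28, the main co-stimulatory receptor, fell by 0.73 (limma adjusted p = 0.00653), and the difference in susceptible rats was -0.45 (adjusted p = 0.0851). Of 17 co-stimulatory and inhibitory receptors 8 were on the array, and 2 were lower in resistant and 0 in susceptible rats. These were Cd28 and Ctla4, its inhibitory counterpart, which fell by 0.80 in resistant rats (adjusted p = 0.0357) and had a difference of -0.48 in the susceptible sub-group (adjusted p = 0.223). Icos and Cd6, the brightest of these receptors, had no call, with -0.28 and -0.13 in resistant and -0.21 and -0.12 in susceptible rats. Whether either of Cd28 and Ctla4 changed differently in the sub-groups was tested over all probe sets, and none passed.

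Downstream of the receptor, 23 of 30 signalling genes were on the array. In resistant rats 3 rose and none fell: Sh2d1a, an adaptor of T and NK cells, by 0.56 (limma adjusted p = 0.00354), the kinase Txk by 0.59 (adjusted p = 0.0227) and the exchange factor Vav1 by 0.41 (adjusted p = 0.0249). In susceptible rats 2 rose, Txk by 0.49 (adjusted p = 0.0480) and the adaptor Lcp2 by 0.42 (adjusted p = 0.0481). There 5 fell: the kinase Fyn by 0.42 (limma adjusted p = 0.0125), the transcription factor Nfatc3 by 0.36 (adjusted p = 0.0207), the phospholipase Plcg1 by 0.47 (adjusted p = 0.0257), the phosphatase Ptpn22 by 0.34 (adjusted p = 0.0296) and the exchange factor Rasgrp1 by 0.31 (adjusted p = 0.0364). Over the 23 genes the median change was 0.01 in resistant and 0.04 in susceptible rats. Ptprc and Ptprcap, the pan-leukocyte phosphatase CD45 and its partner, were the brightest and had no call, with 0.15 and 0.08 in resistant and -0.07 and 0.19 in susceptible rats.

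The comparison of the sub-groups gave values of 1 sign on the brightest probe sets, but not on all 15. On the brightest probe sets all 10 genes had a negative difference between the changes and a negative postdose difference, from -0.24 to -0.06 and from -0.26 to -0.08, beside 47.8% and 50.4% negative values over all probe sets. The medians were -0.10 and -0.14, and over all probe sets 0.02 and -0.003. With quantile normalization all 10 were again negative in both, beside 52.2% and 53.2% negative values over all probe sets. The medians were then -0.23 and -0.27, beside -0.02 and -0.02 over all probe sets. Over all 15 probe sets 2 were positive in the difference between the changes and 1 in the postdose difference. These were the dimmer probe set of Zap70 (0.28 and 0.01) and, in the former comparison, that of Cd247 (0.04). The genes are not independent of each other, as shown next, and both comparisons share the SA and RA arrays. No single gene passed the test. The smallest limma adjusted p over the 15 probe sets was 0.754, of that positive Zap70 value, and 0.456 in the postdose difference. Before dosing 8 of the 10 were negative, with a median of -0.03 beside -0.02 over all. Negative values made up 54.5% of the 30747 probe sets tested in 4 groups and 62.7% of those with a mean signal of at least 5000. With quantile normalization 5 of the 10 were negative before dosing, beside 50.1% over all.

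Apart from the groups, the chains of the complex varied together. The mean log2 signal of Cd3d, Cd3e and Cd3g was taken on each array as its deviation from the group mean. It was highest on SA array 4 (0.22) and RA array 1 (0.20) and lowest on RA array 4 (-0.23), R array 5 (-0.20) and SA array 5 (-0.20). Over the 20 arrays of 10 rats, Cd247 followed it with a Pearson r of 0.918 and a Spearman rho of 0.844, and Lck with 0.885 and 0.928. For Lck the permutation p of each was 1e-05, the smallest that 100000 permutations within groups can give (adjusted 0.000110), and for Cd247 permutation p was 3e-05 and 5e-05 (adjusted 0.000165 and 0.000275 over 11 relations). Cd8a gave r 0.750 and rho 0.800 (permutation p 0.00082 and 0.00011, adjusted 0.00225 and 0.000403) and Cd8b 0.701 and 0.714 (permutation p 0.0005 and 0.00077, adjusted 0.00183 and 0.00212).

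Cd4 did not follow the CD3 chains, with r -0.02 and rho -0.07 (permutation p 0.918 and 0.790, adjusted 0.918 and 0.790). Zap70 gave r 0.625 and rho 0.505 (permutation p 0.0209 and 0.0372, adjusted 0.0384 and 0.0585) and Cd5 0.548 and 0.571 (permutation p 0.0336 and 0.0164, adjusted 0.0528 and 0.0300). Without the 2 arrays farthest from the median of the CD3 mean, RA array 4 and SA array 4, r was 0.874 for Cd247, 0.819 for Lck, 0.613 for Cd8a, 0.676 for Cd8b, 0.462 for Cd5 and 0.027 for Cd4. For Zap70 it was 0.362, so that this relation rested in part on those arrays.

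Covariation of this kind was not confined to T cell genes. Over 7794 probe sets with a mean signal of at least 5000, the median r with the CD3 mean was 0.372 and the 90th percentile 0.708. Cd247, Lck and Cd8a lay above that percentile and Cd8b just below it. Zap70 (0.625) and Cd5 (0.548) lay between the median and that percentile, and Cd4 (-0.02) below the median. The permutation p-values are against no relation within groups, not against this median. The summed monocyte markers gave r 0.744 and rho 0.729 (permutation p 0.00401 and 0.00413, adjusted 0.00882 and 0.00909; r 0.697 without the 2 arrays). Most of that sum is Lyz2 (mean signal 353489), and within single groups r was 0.98 in R, 0.08 in S, 0.82 in RA and 0.55 in SA. NK cells gave r 0.333 and rho 0.365 (permutation p 0.211 and 0.160, adjusted 0.257 and 0.176), B cells 0.465 and 0.377 (permutation p 0.0404 and 0.111, adjusted 0.0556 and 0.153) and neutrophils 0.305 and 0.376 (permutation p 0.234 and 0.131, adjusted 0.257 and 0.160). Without the 2 arrays, r was 0.186 for NK cells, 0.332 for B cells and 0.545 for neutrophils. Within R, S, RA and SA in turn, r was 0.64, 0.60, 0.96 and -0.41 for NK cells. It was 0.84, -0.58, 0.67 and 0.50 for B cells and 0.91, 0.48, 0.66 and -0.35 for neutrophils. Array quality, by the log2 ratio of 3′ to 5′ actin probe sets, was 0.77 to 0.85 in R, 0.82 to 0.95 in S, 0.66 to 0.91 in RA and 0.67 to 0.91 in SA, and its part in the covariation was not tested.

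**Figure D4:**
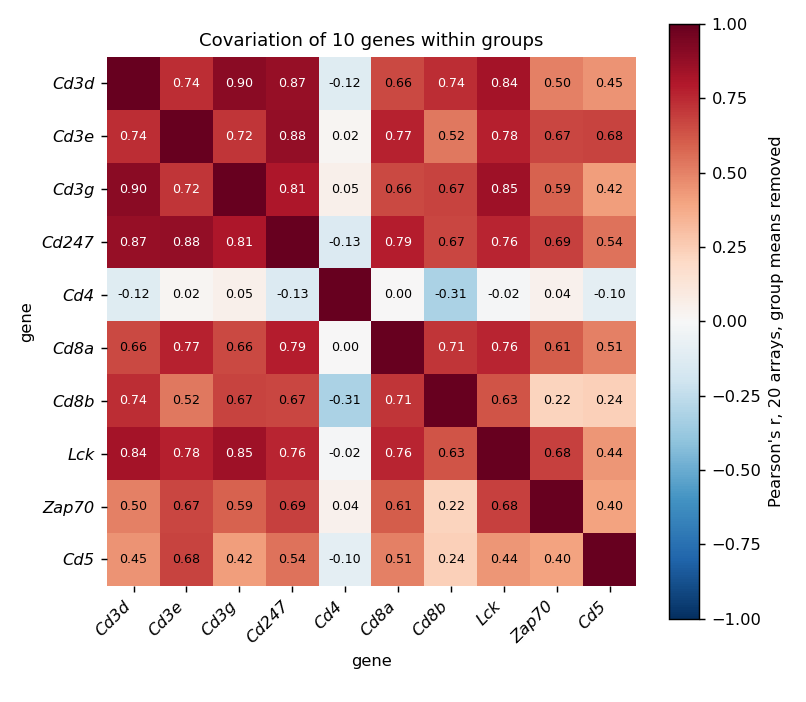
Pearson's r between the 10 genes (both axes, brightest probe set each) over 20 arrays after the 4 group means were removed. The CD3 chains, Cd247 and Lck share values from 0.72 to 0.90, while Cd4 lies between -0.31 and 0.05 with every other gene.

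Of 8920 genes outside the complex with 1 symbol and a mean signal of at least the array median, the 6 most like the CD3 mean within groups were Rps3 (r 0.945), Rpl14 (0.944), Septin6 (0.941), Macroh2a1 (0.927), Ramp1 (0.926) and Skap1 (0.923), beside a median r of 0.273 over the 11979 probe sets of those genes. Likeness was over 20 arrays, which share their scaling. Rps3 and Rpl14 encode ribosomal proteins, and Skap1 an adaptor of T cells. Likeness within groups did not carry over to the changes in every case: Ramp1 fell in susceptible rats by 0.60 (limma adjusted p = 0.0138), whereas Skap1 differed by -0.15 (adjusted p = 0.524) and the CD3 chains by -0.12 to -0.24.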

How the data were processed

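Blood RNA of Wistar rats was measured on 20 arrays. The authors deposited 1 linear intensity per probe set and array, with array medians of 187 to 223. The methods name ArrayTrack and a median of 1000 per chip, and the software that made the deposited signals is not given in the sources used here. After 57 controls were removed, the 31042 other probe sets of every array were brought to a median of 1000 and log2 taken. A probe set below 100 throughout the arrays of a fit was dropped, with 30747 tested in 4 groups and 30416 in the predose fit. Symbols came from the platform's annotation, with 20826 probe sets of 1 symbol, 436 of several and 9780 of none.

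Groups were compared with limma 3.58.1 (lmFit, eBayes) in R 4.3.3 and Benjamini-Hochberg adjustment over all probe sets, tested on simulated data. The predose fit used 10 arrays and the others 20. Members and gene lists were chosen with earlier results of these data known. Every probe set of the 10 genes was named, with the brightest first. Of other lists the genes past the threshold in either change were named, up to the 6 of smallest p, and the 2 brightest. Lcp2, Ptpn22, Rasgrp1, Cd14, Cd68, Clec4a, Ms4a7, Cd163, Camp, Mmp8, Mmp9, Cxcr1, Klrk1 and Klrb1c were named beyond that rule after their values were seen. The covariation with the CD3 chains and the motif counts were chosen after seeing the data. Permutations were 2-sided and drawn within groups with Python 3.11.15. The alternatives are under the processing heading. The arrays set the precision, and correlations between arrays of 0.920 to 0.942 showed no array deposited in duplicate.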

Additional observations from a re-analysis of the deposited data

Results flagged for a closer look

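In each group of 5 arrays, the gap between an extreme array and its nearest neighbour was set against the range of the group. Over 60 such groups, 6 passed Dixon's critical value for 5 samples, where chance gives about 1 in 20. RA array 4 was low for Cd247 on the brighter probe set (43337 beside 53558 to 57241; gap over range 0.761) and for Cd3e on the dimmer one (14393 beside 19921 to 22405; 0.734). SA array 4 was high for Lck (137418 beside 105604 to 111433; 0.796) and for Cd8a on the third probe set (10095 beside 6789 to 7511; 0.745). S array 2 was low for Cd8a on the brightest probe set (54928 beside 66003 to 70416; 0.739), and SA array 2 was high for Cd3e on the dimmer one (17895 beside 15867 to 16425; 0.713). RA array 4 and SA array 4 also had the lowest and the highest deviation from their group's mean for the average of the CD3 chains.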

How the results depend on the processing

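Of 1970 values of single probe sets of these genes under the alternatives, 1948 kept their side of the threshold, 17 lost a call, all of them of Cd4 in susceptible rats, and 5 gained one; none with a call changed sign, and 55 without a call did. The cause was not tested where a count changed. Probe sets of these genes lower in the change in susceptible rats (SA minus S, 1) numbered 4 with quantile normalization, where 4.48% of all probe sets were called lower, 0 with the replicate block, 0 with only the 10 arrays compared, 0 with the methods' t-test after adjustment and 0 to 1 when each array was left out. Those higher numbered 0 to 1 in either change when each array was left out. Over all probe sets, the change in resistant rats (RA minus R, 1570) had 961 calls with 1 probe set per gene, 970 with the replicate block, 968 with only the 10 arrays compared, 729 with the methods' t-test and 967 (without R array 3) to 1661 without single arrays. The change in susceptible rats (2048) had 1290, 910 and 578 calls with the block, only the 10 arrays and the t-test, and 1332 (without SA array 3) to 2270. The difference between the changes (0 calls with limma, 2122 at an unadjusted p under 0.05) had 1 with signals set to the floor of 100, and 0 to 2. The postdose difference (44) had 73 with quantile normalization, 8 with the block, 0 with the t-test and 7 (without RA array 2) to 89 (without SA array 4). The predose difference (1) had 0 with values as deposited, the floor, 1 probe set per gene, the block, all 20 arrays and the t-test, and 0 to 2. Without adjustment, the methods' t-test at their p and fold threshold called 954, 1012, 559 and 370 probe sets in RA minus R, SA minus S, SA minus RA and S minus R, and 0 of these genes in each.

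The labels number replicates 1 to 5 in each group. Correlations of equally numbered arrays' deviations were -0.0316 to 0.0493 between predose and postdose arrays of a sub-group. Between sub-groups, where no rat is shared, they reached from -0.0857 to 0.0544. Such low values cannot show whether equal numbers are 1 rat, and the numbers were not used as pairs. With the replicate block Cd4 in susceptible rats had a limma adjusted p of 0.101.

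With 5 arrays per group, the widest reach of an interval among 9 of these genes was 1.40-fold lower (susceptible rats) and 1.39-fold higher (resistant rats). Other intervals were narrower, such as -0.23 to 0.21 for Cd3g in resistant rats. Those of Cd3d in susceptible rats (-0.48 to -0.004) and of Cd5 (0.06 to 0.43) and Zap70 (0.01 to 0.48) in resistant rats excluded no change, without a call after adjustment. Changes within a gene's own interval were not resolved.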

Other observations

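Of 17 transcription factors and homing genes of T cells, 12 were on the array. S1pr1, the receptor by which lymphocytes leave lymphoid organs, fell by 0.44 in both sub-groups (limma adjusted p = 0.0435 in resistant and 0.0394 in susceptible rats). The other 11 had no call. Tcf7, a factor of naive T cells and one of the brightest of the list, differed by 0.03 and -0.26 (adjusted p = 0.930 and 0.206). The median of the 12 was -0.05 in resistant and -0.16 in susceptible rats. None of 6 platelet and none of 5 red cell markers on the array was called in either change. The brightest were Pf4 and Itga2b of platelets, with -0.02 and -0.07 in resistant and 0.16 and 0.25 in susceptible rats, and Hbb and Alas2 of red cells, with -0.16 and 0.24 and with 0.08 and 0.19. The median over the platelet markers was -0.10 in resistant and 0.16 in susceptible rats, and that over the red cell markers -0.16 and -0.06.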
